A study of Mus musculus with 4 samples.

Results

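The endoplasmic reticulum (ER) folding, stress and secretory pathway genes are 41 listed mouse genes, taken by symbol from a table of 18194 named genes measured in mouse parietal peritoneum. All 41 were measured, all 41 were called Present on at least 1 of 4 arrays, and 40 were Present on all 4 arrays. They comprise 15 luminal chaperones and oxidoreductases, 3 FKBP prolyl isomerases, 6 stress transcription factors, 3 targets of the factors ATF4 and CHOP, 4 genes of ER-associated degradation, 5 of translocation into the ER and 5 of export from the ER and retrieval to it. The tissue came from C57BL/6J mice of 2 genotypes, wild type and SAP-BNP-Tg. The transgenic line carries brain natriuretic peptide under the serum amyloid P promoter, a promoter known for its activity in liver rather than in the peritoneum. Treated mice received chlorhexidine gluconate, an antiseptic known to provoke peritoneal fibrosis in rodents. It was injected into the peritoneal cavity as a 0.1% solution (15% ethanol, 85% PBS) at 0.01 mL per g of body weight, 3 times a week over 21 days. Control mice of both genotypes received ethanol/PBS, called vehicle here, whose proportions and schedule the labels do not give. Each of the 4 combinations was measured on 1 array, and the labels do not give the number of mice behind an array, so no difference below has a replicate check.

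Proteins that are secreted, such as collagens and antibodies, enter the ER through the Sec61 channel and are folded there by chaperones such as BiP and by protein disulphide isomerases. They leave in COPII vesicles, and procollagen needs larger carriers that are organised by the product of Mia3. When unfolded protein builds up, the sensors IRE1, PERK and ATF6 switch on the unfolded protein response, in which XBP1 and ATF6 induce chaperones and degradation genes while ATF4 and CHOP induce amino acid and apoptosis genes. Plasma cells and matrix-producing fibroblasts are the best known heavily secreting cells of connective tissue.

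Matches to 4 promoter motifs of these pathways were searched on both strands in the RefSeq promoters of assembly GRCm38.p6, which run from 250 bases before to 50 bases after each gene's start. The table held 33 of the 41 genes. The ER stress response element (ERSE, CCAAT and CCACG with 9 bases of any kind between them), bound by ATF6 and XBP1 with NF-Y, was matched in 8 of the 33 promoters (24.2%) and in 0.119% of all 32851 promoters. The related ERSE-II (ATTGG and CCACG with 1 base between them) was matched in Dnajb11 and Herpud1 (6.06%) and in 0.0365% of all. The unfolded protein response element (UPRE, TGACGTGG) was matched in 3 (9.09%) and in 0.676% of all. The C/EBP-ATF response element core (CARE, TGATGNAA), bound by ATF4 and CHOP, was matched in 4 (12.1%) and in 3.97% of all. ERSE and ERSE-II both end in CCACG, and the UPRE holds the same letters on its other strand. A match describes the sequence and is not evidence of binding. The sequences are printed with the genes below, 5′ to 3′ on the gene's strand, with the matched motif in capitals.

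Signals are given below as scaled to a common 2% trimmed mean per array. A call of higher or lower needs a log2 difference of 1 or more (2-fold) and, on the array with the brighter signal, a Present call and a signal no dimmer than the 25th percentile of all Present signals. Between 50.5% and 55.1% of probe sets were Present per array. The wild-type vehicle array differed from the rest in 2 controls. It had an 18S ribosomal RNA signal of 1052, against 81.5 to 108 elsewhere, and a 3′ to middle actin ratio, a sign of RNA quality, of 5.81 against 2.23 to 2.84. These values move with every difference that uses this array, and their part in those differences was not tested. The mesothelial markers (8 of 8), fibroblast markers (8 of 8) and skeletal muscle markers (8 of 8) were Present on all 4 arrays, so markers of the peritoneal lining were detected beside those of connective tissue and muscle. In bulk tissue, fewer cells of a type and less RNA per cell cannot be told apart.

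Marker signals of secreting cells differed between the arrays. The summed signal of 10 measured plasma and B cell markers was 4664 on the wild-type vehicle array and 2035 on the transgenic vehicle array, against 435 and 459.9 on the chlorhexidine arrays of the same order. Of the 9 that were Present on any array, all 9 were lower in the transgenic vehicle array than in the wild-type one, at a median log2 difference of -1.09, and 6 were called lower with chlorhexidine in each genotype, where 4.93% (wild type) and 1.4% (transgenic) of all genes were. The plasma cell marker Sdc1 went the other way, at 0.93 and 0.80 with chlorhexidine (log2, wild type and transgenic), and the factor Irf4 differed in sign, at -0.51 and 0.26. Most of the summed signal came from Jchain, which joins antibody subunits, at 3100.4 on the wild-type vehicle array and 1382 on the transgenic vehicle array. Among the 10, Tnfrsf17 was Absent on all arrays, and Cd79a and Ms4a1 were Absent on both chlorhexidine arrays. The summed signal of the fibroblast markers was 19442 and 19622 on the wild-type and transgenic vehicle arrays and 42995 and 35664 on the chlorhexidine arrays, and all 8 were higher with chlorhexidine in both genotypes. Of other cell types, 6 of 6 macrophage markers were higher with chlorhexidine in both genotypes, at median log2 differences of 0.72 (wild type) and 0.48 (transgenic), and 5 of 5 measured adipocyte markers were lower, at -1.46 and -0.70. The mesothelial markers had medians of -0.76 and 0.32. The part of these cell types in the differences of the 41 genes was not tested.

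With chlorhexidine, 12 of the 41 genes (29.3%) were called higher in wild type, where 8.23% of all 12755 genes were, and 0 were called lower, where 4.93% of all genes were. The 12 were Pdia3, Fkbp10, Fkbp11, Fkbp14, Ddit3, Creb3l1, Trib3, Asns, Ssr1, Sec24d, Kdelr2 and Kdelr3. In transgenic mice 4 of 41 (9.76%) were called higher, where 3.81% of all genes were, and 0 lower, where 1.4% were. Those 4, Fkbp11, Trib3, Asns and Kdelr3, were thus called in both genotypes (9.76% against 3.03% of all genes). The median log2 difference over the 41 was 0.36 (wild type) and 0.38 (transgenic), beside -0.00086 and 0.0012 over all genes. In both genotypes 30 of the 41 (73.2%) lay above 0, which 36.4% of all genes did, 4 lay below 0 in both and 7 differed in sign. Median centring, which put the wild-type median of all genes at -0.23, left 27 of 41 above 0 in wild type in place of 33. The count above that median, 33, cannot change under this scaling, which moves all genes of an array by a common factor. For 23 of the 41 (56.1%) both chlorhexidine arrays lay above both vehicle arrays, which held for 30.2% of all genes, and for 3 (7.32%), Dnajb9, Herpud1 and Sec23a, both lay below, which held for 30.6%. Across the 41 genes the differences of the genotypes, which share no array, had a Pearson r of 0.83 and a Spearman rho of 0.785, beside 0.548 and 0.588 over all genes. The background is unlike the 41 in detection, since 10407 of the 12755 genes were Present on all 4 arrays, beside 40 of the 41. The part of this in the comparisons with all genes was not tested. Genes are not independent replicates, so no p is given. The 41 were also chosen with earlier results of these data known, so their shares beside all genes are no independent test. At a limit of 1.5-fold with no call limits, 16 were higher in wild type and 15 in the transgenic pair, where 20.9% and 14.1% of all genes were, and 0 were lower in either, where 19.1% and 9.06% were. By role, the 12 called by the 2-fold rule in wild type were 3 of 3 FKBP isomerases, 3 of 5 export and retrieval genes, 2 of 3 ATF4 and CHOP targets, 2 of 6 transcription factors, 1 of 5 translocation genes, 1 of 15 chaperones and 0 of 4 degradation genes. The chaperone and degradation counts are near the 8.23% of all genes.

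**Figure D1:**
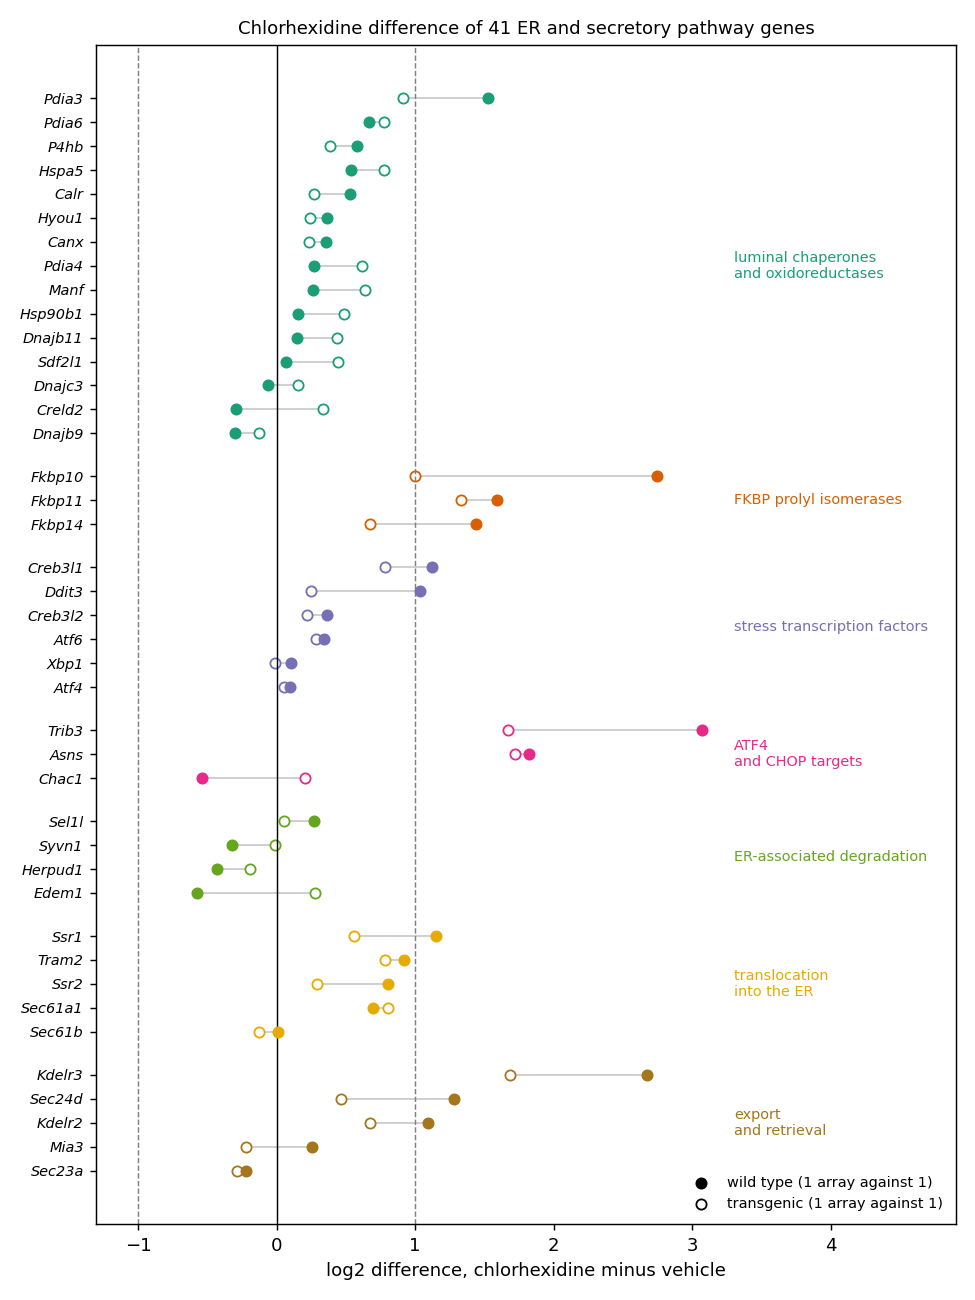
Log2 difference of each of the 41 genes, chlorhexidine minus vehicle, in wild type (filled) and transgenic mice (open), 1 array against 1 in each, grouped by role with dashed lines at a 2-fold difference. Trib3, Fkbp10 and Kdelr3 lie farthest to the right in wild type (3.07, 2.75 and 2.67), and 14 of the 15 chaperones lie left of the 2-fold line in both genotypes, Pdia3 being the exception in wild type.

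An additive limma model of treatment and genotype over all 4 arrays, with 1 residual degree of freedom and Benjamini-Hochberg adjustment over 12755 genes, passed 12 genes (0.0941%) for chlorhexidine at an adjusted p of 0.05 and 0 of the 41. At an unadjusted p under 0.05 it had 15 of the 41, all 15 higher, where 23% of all genes were that low in either direction. The lowest adjusted p among the 41 was 0.0538 for Asns, at a fitted log2 difference of 1.77 ± 0.213 (SE, n = 4 arrays). Kdelr3 followed with 2.18 ± 0.309 (adjusted p = 0.0640), then Fkbp11 with 1.46 ± 0.220 (adjusted p = 0.0674). The residual degree of freedom is the difference between the chlorhexidine differences of the genotypes, so such a difference counts as error, and the p-values rest on no replicate arrays. The count depended on the settings of the fit. With a variance prior that follows intensity, limma passed 15 of the 41 (19.4% of all genes), with genes Present on all 4 arrays 15 of 40 (21.3%), and with a pseudocount of 32 it passed 16 (18.5%). With quantile normalization it passed 0 of the 41 and 0 of all genes, and 16 had an unadjusted p under 0.05 (22.1% of all genes).

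The luminal chaperones bind unfolded chains, and the oxidoreductases among them form disulphide bonds. With chlorhexidine 12 of the 15 lay above 0 in wild type and 14 in transgenic mice, at median log2 differences of 0.27 and 0.43. Under median centring the wild-type count was 9 of 15 above 0. The count above the median of all genes, 12 of 15, cannot change under this scaling. At 1.5-fold the count was 2 and 5. By the probe set that stands for each gene, only Pdia3 was called, in wild type. Its product ERp57 forms disulphides in glycoproteins held by calnexin and calreticulin. Its signal was 591 with vehicle and 1704 with chlorhexidine in wild type, and 773 and 1459 in transgenic mice, which is 2.88-fold and 1.89-fold. Both chlorhexidine arrays thus lay above both vehicle arrays.

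Hspa5 encodes BiP, the main ER chaperone of the Hsp70 family and the usual marker of the unfolded protein response. Its signal was 2076 and 3016 in wild type (vehicle, then chlorhexidine) and 1413 and 2415 in transgenic mice, 1.45-fold and 1.71-fold. Of 3 Hspa5 probe sets, 1 was at -0.28 in wild type. Pdia6, a disulphide isomerase that restrains the sensor IRE1, was at 495 and 784, then 349 and 599, or 1.58-fold and 1.71-fold. P4hb, a disulphide isomerase and the beta subunit of the collagen prolyl hydroxylase, was at 1701 and 2543, then 1601 and 2086, or 1.49-fold and 1.30-fold. By the probe set that stands for each of these 3 genes, both chlorhexidine arrays were above both vehicle arrays, and none reached 2-fold within a genotype. Over the 15 chaperones this order held for 6 (40%), beside 30.2% of all genes, and the reverse for 1 (6.67%), beside 30.6%. The lectin chaperones calreticulin and calnexin, which hold glycoproteins until they fold, gave 1.44-fold and 1.20-fold for Calr and 1.28-fold and 1.18-fold for Canx (wild type, then transgenic). Other Canx probe sets Present on all arrays gave larger log2 differences. They were at 1.39 and 0.46 in wild type and at 0.61 and 0.48 in transgenic mice.

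Hsp90b1, which encodes the ER Hsp90 GRP94, was at 1653 and 1842 in wild type and 1036 and 1453 in transgenic mice. Its vehicle arrays lay farther apart (log2 difference -0.67, transgenic minus wild type) than vehicle and chlorhexidine did in wild type (0.16). A second Hsp90b1 probe set, Present on all 4 arrays, did not show this, at 0.23 between the vehicle arrays and 0.79 with chlorhexidine in wild type. By 1 probe set Present on all arrays, the vehicle arrays also lay farther apart for Manf, a secreted ER stress factor, at 761, 914, 493 and 768 in the same array order, and for Pdia4, a further disulphide isomerase, at 78.0, 93.9, 39.7 and 60.9. The BiP co-chaperone genes Dnajb11, Sdf2l1, Dnajc3 and Dnajb9 and the exchange factor gene Hyou1 had log2 differences between -0.30 (Dnajb9) and 0.36 (Hyou1) in wild type, and between -0.13 (Dnajb9) and 0.44 (Sdf2l1) in transgenic mice. Creld2, an ER stress-induced protein that is partly secreted, differed in sign, at -0.29 in wild type and 0.34 in transgenic mice. Dnajc3, at -0.06 in wild type by its brightest probe set, had 4 other probe sets at 0.34 to 0.56.

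The 8 genes with an ERSE were Calr, Canx, Creld2, Dnajc3, Hsp90b1, Hspa5, Pdia6 and Syvn1. Their median log2 chlorhexidine difference was 0.26 in wild type (from -0.33 to 0.66) and 0.30 in transgenic mice, and 0 of 8 were called in either genotype, a count near the background, since 8.23% and 3.81% of all genes were called higher. The 17 genes with a promoter and none of the 4 motifs had medians of 0.27 and 0.28. The elements of Hspa5 (chr2:34772005-34772064, + strand, first base at -65 from the start), Hsp90b1 (chr10:86705617-86705676, - strand, -212) and Creld2 (chr15:88819500-88819559, + strand, -126, on the other strand) are shown as chaperone promoters that carry the classic element.
Hspa5: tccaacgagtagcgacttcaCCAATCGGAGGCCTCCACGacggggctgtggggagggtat
Hsp90b1: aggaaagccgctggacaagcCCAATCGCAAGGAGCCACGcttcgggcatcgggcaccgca
Creld2: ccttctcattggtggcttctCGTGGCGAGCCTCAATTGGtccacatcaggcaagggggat

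By the probe set that stands for each gene, 14 of the 15 chaperones had a lower signal in transgenic than in wild-type vehicle tissue. Their median log2 difference was -0.50, while 7072 of 12755 genes lay below 0, at a median of -0.04. Creld2 was called lower, at 298 in wild type and 129 in transgenic tissue, a 2.31-fold difference, where 0.502% of all genes were called lower. Pdia4 (-0.98) and Sdf2l1 (-0.91) came next, and Pdia3 alone lay above 0 (0.39). With the signals as deposited, which put the median of all genes at 0.37 for this pair, 9 of 15 lay below 0 and Creld2 was no longer called. The count below that median, 14 of 15, cannot change here, since the scalings differ by a common factor per array. With quantile normalization 12 of 15 lay below its median of all genes. Some further probe sets Present on all arrays were above 0, at 0.75 for 1 of Dnajc3, 0.45 for 1 of Canx, 0.23 for 1 of Hsp90b1 and 0.04 for 1 of Calr. The same pair of arrays differed in the plasma and B cell markers and in the 18S and actin values given above. Mesothelial markers were also lower in transgenic vehicle tissue (7 of 8, median -0.43), as were skeletal muscle markers (8 of 8, median -0.30). The medians of the fibroblast, macrophage, adipocyte and endothelial lists lay between -0.04 and 0.11. Whether any of these take part in the chaperone difference was not tested.

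The chlorhexidine difference of the chaperones depended on which vehicle array was used. Set against transgenic vehicle tissue, the wild-type chlorhexidine array gave the chaperones a median log2 difference of 0.83 in place of 0.27, with 14 of 15 above 0 and 4 called higher, where 7.24% of all genes were called. The 4 were Hspa5 (1.09), Pdia3 (1.14), Pdia4 (1.24) and Pdia6 (1.17). Creld2 was at 0.91 against that array and -0.29 against its own. In the reverse exchange, the transgenic chlorhexidine array against the wild-type vehicle array gave a median of -0.03 in place of 0.43, with 7 of 15 above 0 and Pdia3 alone called higher, where 5.17% of all genes were, and 0 lower, where 2.45% were. Over all 41 genes, the wild-type chlorhexidine array gave 13 called higher (31.7%) in this exchange and 1 called lower (Chac1, where 3.57% of all genes were). Of the genes called against the wild-type vehicle array, Ddit3 (0.57), Sec24d (0.97) and Kdelr2 (0.96) stayed under 1 in the exchange. The medians and single-gene values of this exchange were added after seeing the data, and it sets genotypes against each other as well as treatments.

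**Figure D2:**
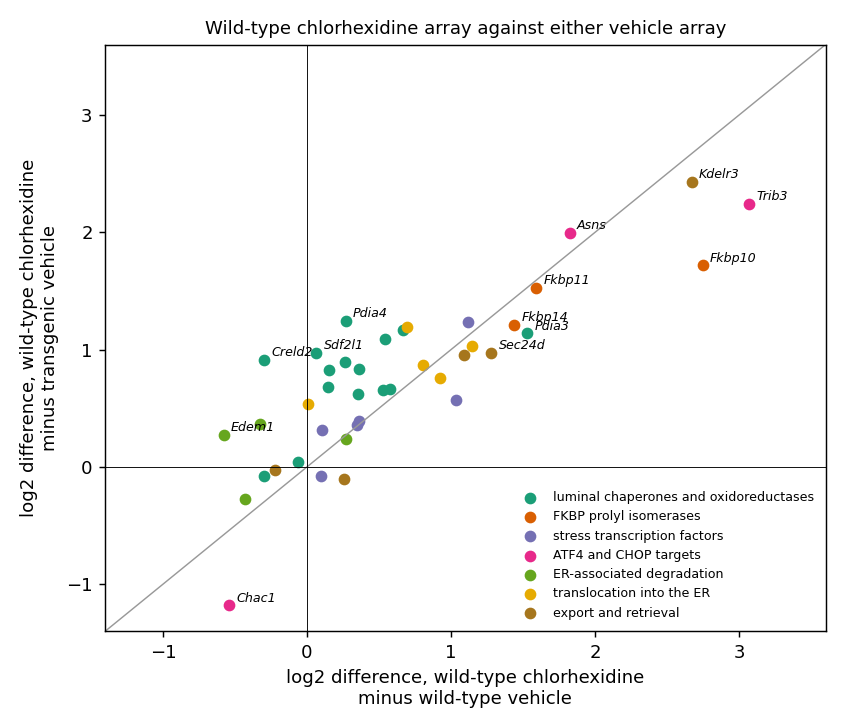
Log2 difference of the wild-type chlorhexidine array from the wild-type vehicle array (horizontal) and from the transgenic vehicle array (vertical), 1 point per gene, coloured by role, with the line of equal values. Both axes share the chlorhexidine array. Of the 15 chaperones 14 lie above the line, Creld2 at -0.29 and 0.91 and Pdia4 at 0.27 and 1.24, while Fkbp11 (1.59 and 1.53) and Kdelr3 (2.67 and 2.43) are far from 0 on both.

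The FKBP prolyl isomerases of the ER turn proline bonds of procollagen and related chains. All 3 were called higher with chlorhexidine in wild type, and Fkbp11 also in transgenic mice. Of all genes 8.23% (wild type) and 3.81% (transgenic) were. Fkbp10, which encodes the collagen chaperone FKBP65, was at 35.6 with vehicle and 239 with chlorhexidine in wild type (6.72-fold) and at 72.6 and 145 in transgenic mice, a log2 difference of 0.997 that falls just short of the 2-fold limit. Fkbp10 was also the only one of the 41 called higher on the transgenic vehicle array when compared with the wild-type one (2.04-fold, where 0.964% of all genes were called). Its chlorhexidine log2 difference was smaller in transgenic mice by 1.75, a value without a test. Quantile normalization, median centring and a pseudocount of 32 took its vehicle difference below 2-fold.

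Fkbp14, whose product FKBP22 acts on type III collagen among others, was at 94.1 and 255 in wild type (2.71-fold) and 110.1 and 176 in transgenic mice (1.59-fold). Fkbp11, known from secretory cells and plasma cells, was at 32.3 and 97.4 in wild type (3.02-fold) and 33.8 and 85.2 in transgenic mice (2.52-fold). It was higher with chlorhexidine on arrays where the plasma and B cell markers were lower. For each of the 3 genes both chlorhexidine arrays lay above both vehicle arrays. The probe set that stands for Fkbp11 is of the kind that can bind more than 1 transcript. Its other 2 probe sets were Absent on all arrays, so Fkbp11 rests on 1 probe set.

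The stress transcription factors showed smaller differences, with medians of 0.35 (wild type) and 0.23 (transgenic). Of the 6, 2 were called higher in wild type, where 8.23% of all genes were. Xbp1, the factor made active by IRE1 splicing, was at 1407, 1514, 1219.5 and 1209.6 on the vehicle and chlorhexidine arrays of wild type and then of transgenic mice. Atf4, whose protein is set mainly by translation, was at 1138, 1218, 1283 and 1332 in that order. By these probe sets both genes had log2 differences between -0.01 and 0.11. Other Xbp1 probe sets Present on all arrays gave -0.34, -0.29 and 0.05 in wild type. In transgenic mice the same sets gave 0.15, 0.55 and 0.11. A second Atf4 probe set Present on all arrays gave 0.06 in wild type and 0.50 in transgenic mice. The arrays do not report splicing of Xbp1 or translation of Atf4. Atf6, the membrane sensor and factor cut in the Golgi, was at 0.35 in wild type and 0.28 in transgenic mice (log2 differences).

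Ddit3, which encodes CHOP, was called higher in wild type, at 141 with vehicle and 287 with chlorhexidine (2.04-fold). In transgenic mice it was at 193 and 229 (1.19-fold), and the difference between the genotypes' log2 differences was -0.78. With the vehicle array of the other genotype the wild-type value was 0.57 on the log2 scale and not called, and median centring and quantile normalization also took it under 2-fold. Creb3l1 encodes OASIS, a membrane factor related to ATF6 that is needed for type I collagen expression in bone. It was at 36.2 and 78.6 in wild type (2.17-fold, called) and 33.4 and 57.5 in transgenic mice (1.72-fold). It stood higher on both chlorhexidine arrays than on both vehicle arrays. Under median centring and quantile normalization its wild-type difference was under 2-fold. Its relative Creb3l2, which induces Sec23a in cartilage, was at 0.36 and 0.22 (log2, wild type and transgenic).

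The ATF4 and CHOP targets held the highest single gene and a gene of opposite pattern. Trib3, a pseudokinase that restrains ATF4 and CHOP, was Absent on both vehicle arrays (21.3 in wild type, 37.7 in transgenic) and Present on both chlorhexidine arrays (179 and 120.1). The ratio of its chlorhexidine to its vehicle signal was 8.39 (wild type) and 3.18 (transgenic), or 3.07 and 1.67 on the log2 scale. Its vehicle signals, though Absent, lay above the lowest Present signals of their arrays (2.93 and 3.25). These ratios are thus estimates from dim signals and not lower bounds. A second Trib3 probe set, Present on the wild-type vehicle array, had log2 differences of 2.90 and 2.15. Asns, the enzyme that makes asparagine and a textbook ATF4 target, was at 115 and 405 in wild type (3.54-fold) and 102 and 334 in transgenic mice (3.29-fold). Its second probe set gave 1.89 and 2.48, and the vehicle arrays lay close together (-0.17, log2). For both genes, each probe set was higher on both chlorhexidine arrays than on both vehicle arrays.

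Chac1, a glutathione-degrading enzyme and a further ATF4 target, did not follow them. It was at 433 and 298 in wild type, a log2 difference of -0.54, and at 675 and 779 in transgenic mice (0.21). The transgenic arrays were thus both above the wild-type arrays. Between the chlorhexidine arrays Chac1 was the only one of the 41 called higher in transgenic tissue (2.61-fold, where 0.784% of all genes were), and 0 were called lower, where 0.964% were. The CARE elements of Asns (chr6:7693210-7693269, - strand, -23) and Chac1 (chr2:119351023-119351082, + strand, -193, on the other strand) are shown since both promoters hold one and the genes differed in direction in wild type. Trib3 and Herpud1 are the other matches.
Asns: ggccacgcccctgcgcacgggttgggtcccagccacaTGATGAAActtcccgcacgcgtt
Chac1: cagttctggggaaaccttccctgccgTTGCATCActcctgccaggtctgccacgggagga

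Genes of ER-associated degradation, which returns misfolded chains to the cytosol, were not called in either genotype, in a list of 4 where 8.23% and 3.81% of all genes were called higher and 4.93% and 1.4% lower. Their median log2 chlorhexidine difference was -0.38 (wild type) and 0.02 (transgenic), and 0.26 when the wild-type chlorhexidine array was set against the transgenic vehicle array, a turn of direction. Herpud1, which organises the degradation complex and is one of the most inducible stress targets, was at 1275 with vehicle and 946 with chlorhexidine in wild type and 1145 and 1003 in transgenic mice. It was lower by less than 1.5-fold on both chlorhexidine arrays. Edem1, a lectin that extracts glycoproteins for degradation, was at 312, 209, 173 and 209.6 in the same array order, with the wild-type vehicle array above the other 3. A second Edem1 probe set gave 0.36 in wild type, opposite in sign to the -0.58 of the first. The ubiquitin ligase gene Syvn1 was at -0.33 and -0.01 and its partner Sel1l at 0.27 and 0.05 (log2, wild type and transgenic). In wild type the other Syvn1 probe set was at 0.27, opposite in sign, and 3 other Sel1l probe sets Present on all arrays were at 0.62, 0.67 and 1.30. The ERSE-II of Herpud1 (chr8:94386353-94386412, + strand, -52) is shown as the degradation gene promoter that holds this element.
Herpud1: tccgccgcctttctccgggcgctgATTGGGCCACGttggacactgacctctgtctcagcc

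The median difference of the translocation genes was 0.80 (wild type) and 0.56 (transgenic). Of the 5, 1 was called higher, in wild type, where 8.23% of all genes were. Ssr1, a subunit of the translocon-associated TRAP complex, was at 314 and 695 in wild type (2.21-fold) and 339.8 and 501 in transgenic mice (1.48-fold). Median centring took its wild-type log2 difference to 0.91, under 2-fold. Tram2, a translocon protein reported to take part in type I collagen synthesis, was at 58.8 and 111, then 66.1 and 114, or 1.90-fold and 1.72-fold. Sec61a1, the channel subunit, was at 341 and 552, then 242 and 421, or 1.62-fold and 1.74-fold. By the probe set that stands for each gene, both chlorhexidine arrays exceeded both vehicle arrays in all 3, though none but Ssr1 reached 2-fold. The 6 probe sets of Sec61a1 spread from 0.43 to 2.27 on the log2 scale in wild type and from 0.19 to 0.98 in transgenic mice. Of 4 Ssr1 probe sets, 1 was at -0.10 in wild type. A second Tram2 probe set, Present on both wild-type arrays and Absent on both transgenic arrays, was at -0.77 and -0.19 (wild type, then transgenic). Ssr2, a second TRAP subunit, was at 0.80 and 0.29, and Sec61b, the small channel subunit, at 0.01 and -0.12 (log2, wild type and transgenic).

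Among export and retrieval genes, both retrieval receptors and Sec24d were called higher in wild type, and the procollagen carrier gene Mia3 was not. Kdelr3 and Kdelr2 encode receptors that bring chaperones with a KDEL tail back from the Golgi. Kdelr3 was at 53.5 with vehicle and 341 with chlorhexidine in wild type (6.37-fold) and 63.2 and 204 in transgenic mice (3.22-fold), the highest fold in wild type after Fkbp10 among the genes Present on all arrays. Kdelr2 was at 381 and 812, then 419 and 667, or 2.13-fold (called) and 1.59-fold, and a second probe set gave log2 differences of 1.20 and 1.09. Under median centring the wild-type log2 difference of Kdelr2 was 0.86, under 2-fold. Sec24d, a cargo-binding COPII coat subunit needed for collagen export in fish and mammals, was at 177 and 429 in wild type (2.43-fold) and 219 and 303 in transgenic mice (1.38-fold). All 3 were higher on both chlorhexidine arrays than on both vehicle arrays. Mia3, which encodes TANGO1 and loads procollagen into large carriers, was at 613, 732, 787 and 676 in the array order above. Sec23a, the partner coat subunit, was at 956, 821, 836 and 685. Both of these overlapped between treatments or were lower with chlorhexidine by less than 1.5-fold.

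The UPRE was matched in Sec24d (chr3:123267436-123267495, + strand, -26), Kdelr3 (chr15:79516348-79516407, + strand, -30, on the other strand) and Sec23a, where it lies after the start. Both upstream matches are shown because the 3 genes with this element all act in export and retrieval. Their log2 differences ran from -0.22 to 2.67 in wild type and from -0.29 to 1.69 in transgenic mice. In wild type 2 of 3 were called higher and in transgenic mice 1, where 8.23% and 3.81% of all genes were.
Sec24d: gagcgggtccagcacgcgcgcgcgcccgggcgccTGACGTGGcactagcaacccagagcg
Kdelr3: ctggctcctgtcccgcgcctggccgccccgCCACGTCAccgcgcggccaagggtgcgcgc

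**Figure D3:**
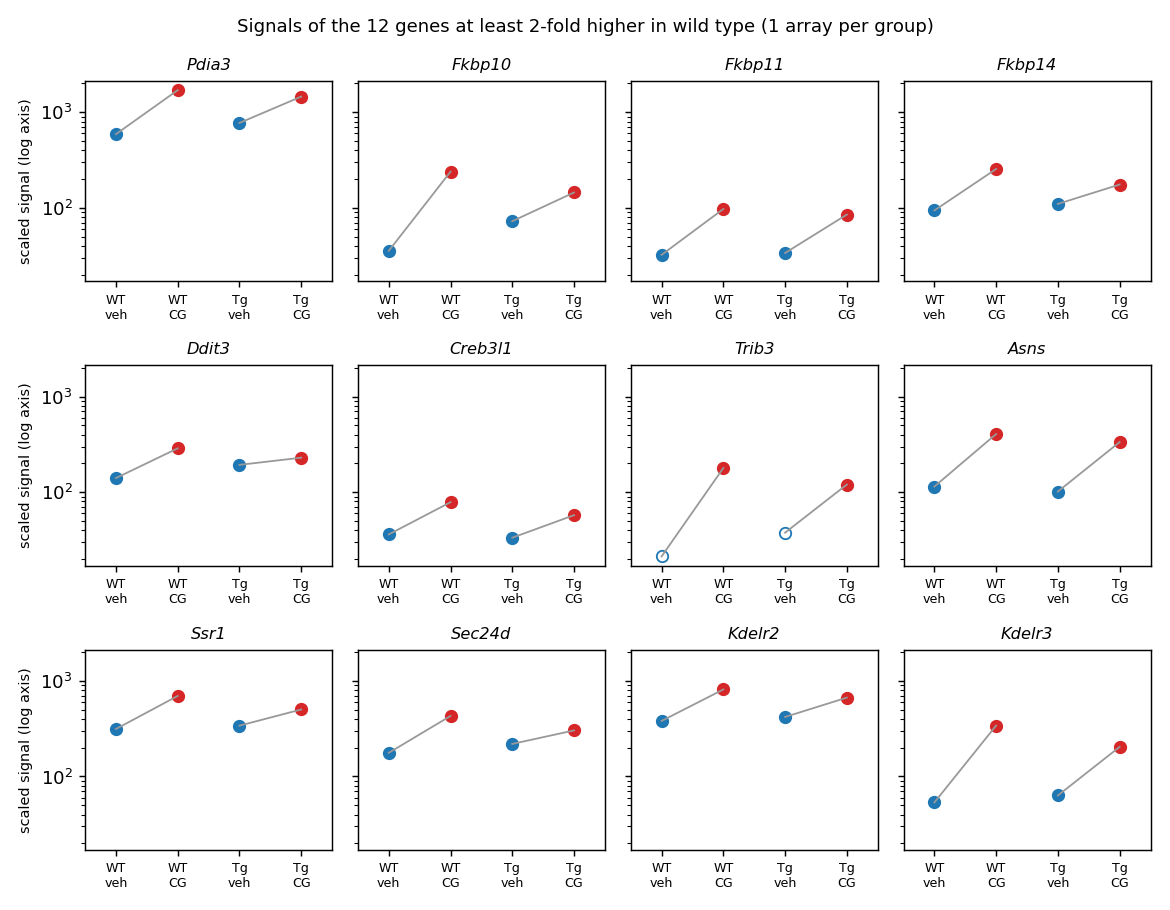
Scaled signal (log axis) of the 12 genes called higher in wild type on each of the 4 arrays, vehicle in blue and chlorhexidine in red, with open points for signals called Absent. Lines join the arrays of 1 genotype. In all 12 panels the chlorhexidine point of each genotype is above its vehicle point, which in wild type follows from the choice of genes. The open points are the Trib3 vehicle signals (21.3 and 37.7).

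Under chlorhexidine, 35 of the 41 genes had a lower signal in transgenic than in wild-type tissue, at a median log2 difference of -0.32, beside 6792 of 12755 genes and -0.03. This comparison uses neither vehicle array. The lowest were Kdelr3 (-0.74), Fkbp10 (-0.72), Sec61b (-0.66), Pdia4 (-0.62) and Hyou1 (-0.59), and none of the 35 reached 2-fold. At 1.5-fold, 5 of 41 were lower and 1 higher, where 8.03% and 6.98% of all genes were. The count below 0 was 34 to 37 of 41 under quantile normalization, median centring and the deposited scaling. The fibroblast markers were also lower on this transgenic array, 8 of 8 at a median of -0.31, while the plasma and B cell markers had a median of 0.04. Their part in the difference was not tested. On the vehicle arrays 26 of 41 were lower in transgenic tissue, at a median of -0.11, beside 7072 of 12755 genes and -0.04. At 1.5-fold, 7 were lower and 3 higher there, where 7.46% and 7.64% of all genes were. The medians by role on the vehicle arrays were 0.64 (ATF4 and CHOP targets), 0.24 (export and retrieval), 0.23 (FKBP isomerases), -0.02 (transcription factors), -0.06 (translocation), -0.42 (degradation) and -0.50 (chaperones).

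**Figure D4:**
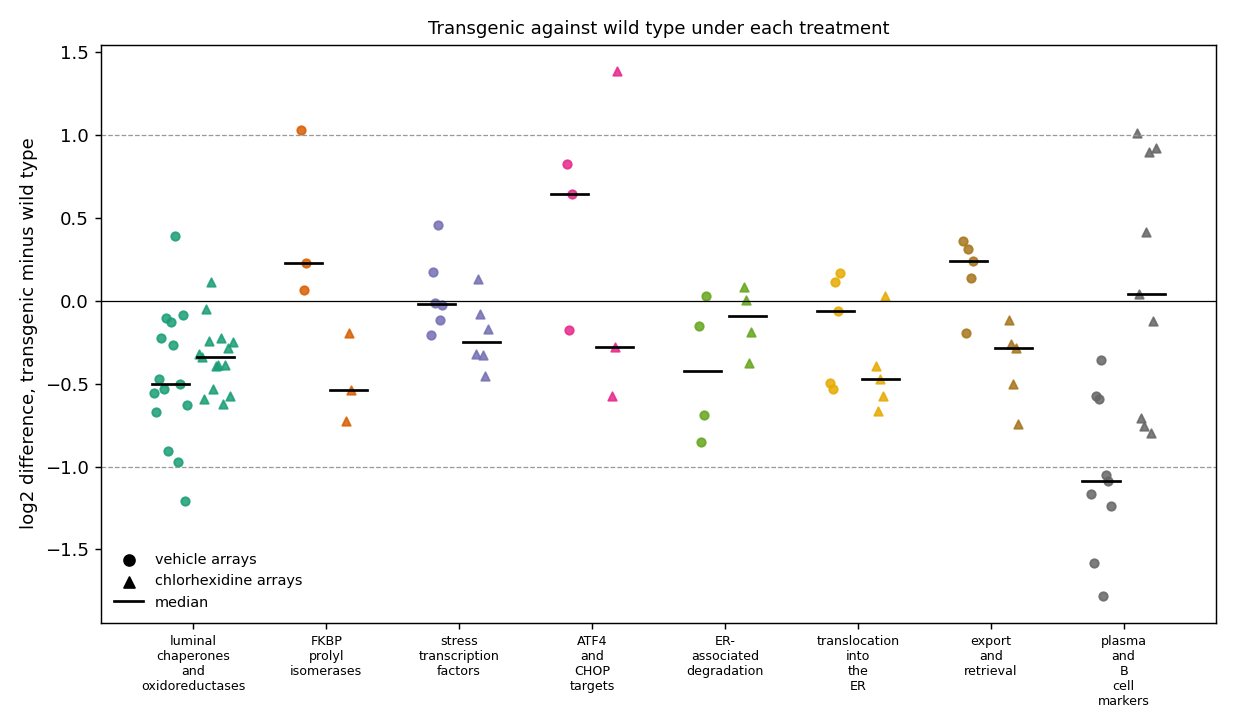
Log2 difference of transgenic from wild-type tissue for each gene on the vehicle arrays (circles) and the chlorhexidine arrays (triangles), by role, with 9 plasma and B cell markers at the right, medians as bars and dashed lines at 2-fold. The chaperones lie mostly below 0 in both pairs (14 of 15 in each), and the markers lie below 0 in 9 of 9 on the vehicle arrays and 4 of 9 on the chlorhexidine arrays.

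Further genes of the same pathways were read from lists, whose counts stand beside the 8.23% (wild type) and 3.81% (transgenic) of all genes called higher and the 4.93% and 1.4% called lower. These lists too were chosen with earlier results of the data known. Of 21 other Present folding enzymes, 7 were called higher in wild type, 5 were called higher in the transgenic pair and 0 were lower in either, at medians of 0.69 and 0.44. The 4 highest of those called in both were Pdia5, a disulphide isomerase, Rcn3 and Rcn1, calcium-binding reticulocalbins, and Serpinh1, the collagen chaperone HSP47. Pdia5 was at 55.8 and 192 in wild type and 43.9 and 147 in transgenic mice. Rcn3 was at 165 and 678, then 194 and 473, and Serpinh1 at 967 and 3124, then 1028 and 2208. For all 3, both chlorhexidine arrays exceeded both vehicle arrays, which held for 30.2% of all genes. These genes were named for their calls in both genotypes, so this order is no separate result. Rcn1 had log2 differences of 1.82 and 1.04.

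Of 16 other ATF4 targets of amino acid metabolism, 4 were called higher and 2 lower in wild type, and 3 higher and 1 lower in transgenic mice, at medians of 0.31 and 0.21. Mthfd2, a mitochondrial folate enzyme, was at 32.5 with vehicle and 254 with chlorhexidine in wild type (7.81-fold) and 48.2 and 238 in transgenic mice (4.93-fold). Pck2, the mitochondrial PEPCK, had log2 differences of 1.14 and 1.47. Stc2, a secreted glycoprotein of the same response, was lower in both (-1.03 and -1.26). The targets thus went in both directions.

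In wild type the medians of the remaining lists lay nearer to that of all genes. In transgenic mice the median of the other degradation genes (0.24) did not, beside 0.21 for the other ATF4 targets. The 14 other stress sensors and effectors had medians of 0.18 and 0.14, with 1 called higher in wild type and 1 lower in transgenic mice. Both calls were Atf3, a stress-induced factor downstream of ATF4. The 14 other degradation genes had medians of 0.04 and 0.24, and 1 was called lower, Derl3 in wild type (71.4 on the vehicle array, Absent at 16.7 with chlorhexidine). Derl3, a derlin of the degradation channel, was named after its value was seen. No gene was called among 21 other translocon, signal peptidase and oligosaccharyl transferase genes (medians 0.16 and 0.15) or 27 other ER to Golgi transport genes (0.05 and 0.11) in either genotype.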

How the data were processed

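Total RNA of the parietal peritoneum was hybridised to 4 Affymetrix arrays, 1 per group, per the labels' protocols. The deposited values are an expression signal per probe set, an intensity on a linear scale, beside which the authors give a detection p-value and the call made from it (Present, Marginal or Absent), per the file headers. No source used here names the algorithm or its scaling, and no raw image files were used. The deposited series table differed from the array files in 0 values.

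Of 45101 probe sets per array, 64 are controls and were dropped. Among the remaining 45037, 34945 had 1 symbol in the platform annotation, and 1 (Fkbp10) was named from the description in the array files. The probe set of highest mean log2 signal stood for a gene. Arrays were scaled to a common 2% trimmed mean by factors of 1.17 and 0.984 (wild type, vehicle and chlorhexidine) and 0.877 and 1.01 (transgenic). Signals under 0.1 were set to 0.1. Array number limits the precision.

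The size rule above carries no p-value. The additive fit used limma 3.58.1 in R 4.3.3 and was tested on simulated data, and other steps used Python 3.11.15. Named genes were the 41 genes, up to 4 genes of each further list called alike in both genotypes, and up to 3 genes of each marker list. Of the plasma and B cell list more were named, for their direction or detection calls. Derl3 and Atf3 were named for their calls. The genes and lists were chosen with earlier results of these data known. Alternatives were quantile normalization, median centring, deposited scaling, the mean of probe sets, no cross-hybridising probe sets, a pseudocount of 32, 1.5-fold and 3-fold limits, no limit on dim signals, other settings of the fit, and the other genotype's vehicle array.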

Additional observations from a re-analysis of the deposited data

Results flagged for a closer look

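Atf3, a stress-induced transcription factor among the further stress genes, was called in opposite directions in the genotypes. Its signal was 168 with vehicle and 362 with chlorhexidine in wild type, a log2 difference of 1.10, and 756 and 375 in transgenic mice, a difference of -1.01. The difference of these differences was -2.12. It rests on 4 arrays, 1 per group, and was not tested. The vehicle arrays were the pair farthest apart (log2 difference 2.17, transgenic minus wild type).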

How the results depend on the processing

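With 1 array per group, the data cannot show whether any difference exceeds the spread between mice, and the wild-type vehicle array differed from the rest in its 18S and actin controls. No paired analysis was possible because each group has 1 sample and the labels give no replicate numbers. The SD between probe sets of the same gene, over 16 of the 41 genes with 47 probe sets, was 0.441 (wild type) and 0.236 (transgenic), and 7 and 3 of the 16 genes had probe sets of both signs. Median centring, quantile normalization and the deposited scaling put the all-gene median of the wild-type difference at -0.23, -0.11 and 0.25, and split its calls 724 higher to 1225 lower, 868 to 748 and 1587 to 318, against 1050 to 629. The deposited scaling put the transgenic median at -0.20 and its calls at 329 to 320, against 486 to 178.

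The count of the 41 called higher in wild type was 8 to 14 under the scalings, probe set rules, the pseudocount and the exchanged vehicle array. It was 16 at 1.5-fold and 5 at 3-fold, and with the exchanged vehicle array 1 was lower. In transgenic mice the count was 3 to 6, and 15 at 1.5-fold. Between the vehicle arrays, 1 higher and 1 lower became 0 and 2 (quantile normalization), 0 and 3 (median centring), 2 and 0 (deposited scaling), 2 and 1 (mean of probe sets), 0 and 1 (pseudocount), 2 and 7 (1.5-fold) and 0 and 0 (3-fold). Between the chlorhexidine arrays, 1 higher and 0 lower became 2 and 1 (mean of probe sets), 1 and 5 (1.5-fold) and 0 and 0 (3-fold). The limma fit passed 15 genes with an intensity trend, 15 when genes had to be Present on all 4 arrays, 16 with the pseudocount, and 0 with quantile normalization (16 at an unadjusted p under 0.05).

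Under the deposited scaling, vehicle array medians were -0.087 (chaperones), 0.64 (FKBP isomerases), 0.40 (transcription factors), 1.06 (ATF4 and CHOP targets), -0.00517 (degradation), 0.35 (translocation) and 0.66 (export and retrieval), each moved by the common factor between the arrays. The ATF4 and CHOP target median in transgenic mice was 1.13 with the pseudocount, and the FKBP median was 0.67 without cross-hybridising probe sets. With the other genotype's vehicle array, chosen after seeing the data, medians were 0.83 (wild type) and -0.033 (transgenic) for chaperones, 0.26 and -0.46 for degradation genes, and in transgenic mice 1.40 for the FKBP isomerases and 0.78 for export and retrieval. Fkbp14 was at -0.14 in wild type by the mean of its probe sets, of which 1 is Absent on all arrays. Fkbp11 was at -0.17 in wild type and -0.73 in transgenic mice without cross-hybridising probe sets, which leaves probe sets that are Absent on all arrays.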
